A study of Marchantia polymorpha and Arabidopsis thaliana and Oryza sativa Japonica Group with 116 samples.

Results

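Seedlings of Arabidopsis thaliana carrying mutations in the 3 extra-large G-protein genes (genotype xlg1,2,3) were compared with the wild type Col-0 before any treatment. The comparison used 3 xlg1,2,3 and 3 Col-0 libraries, 6 of the 116 samples of the series, taken by their genotype and time labels. Both genotypes were 7-day-old whole seedlings grown in diluted Murashige and Skoog liquid medium under continuous light, and the untreated samples are the 0 h point of a treatment with 100 mM NaCl. The series also held xlg1,2,3 and Col-0 seedlings after 2 h and 24 h in NaCl (3 libraries per genotype and time) and after 4 h in 0.3 ug/mL tunicamycin (2 libraries per genotype). It further held untreated seedlings of the mutants agb1-2 and gpa1-3 (3 libraries each). The labels do not give the alleles combined in xlg1,2,3. The design text calls the samples biological replicates but does not say that they came from separate cultures. The p-values therefore measure the spread between replicate libraries, which may be technical. That spread was estimated over all 44 Arabidopsis libraries (16 groups), not over the 6 compared alone.

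Heterotrimeric G proteins carry signals from the plasma membrane into the cell. A Gα subunit binds GTP, and a Gβ and a Gγ subunit form a dimer with it. Arabidopsis has 1 canonical Gα, encoded by GPA1, 1 Gβ, encoded by AGB1, and 3 Gγ subunits, encoded by AGG1, AGG2 and AGG3. The extra-large proteins XLG1, XLG2 and XLG3 have a Gα-like domain behind a long extension, and they bind the same Gβγ dimers. They are known for roles in the immune response to microbial patterns, in salt tolerance and in root growth.

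The xlg1,2,3 libraries held between 14.9 and 34.6 M counts (M, 1e+06) and the Col-0 libraries between 15.3 and 33.8 M. In both genotypes the replicate 3 library was the shallowest. Each of the 6 libraries was closest to another library of its own genotype. Replicates of a genotype differed by more than sampling noise, so none was counted as a copy of another. Values below are CPM, the counts of a gene per 1e+06 counts of its library, with the library total adjusted by edgeR's TMM scaling factor. They compare a gene between libraries but not different genes with each other. Differences are log2 values of xlg1,2,3 minus Col-0 ± SE, and a gene was called when edgeR's quasi-likelihood adjusted p was under 0.05.

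Of 20858 genes tested, 1624 (7.79%) were higher and 1773 (8.5%) lower in xlg1,2,3 seedlings, together 16.3% of the genes. By at least 2-fold, 611 were higher and 606 lower. By at least 4-fold, 170 were higher and 241 lower. The median difference of all genes was -0.01. The libraries of the genotypes did not overlap for 34.8% of the genes tested, and 15.6% were both called and free of overlap. Of the 3397 genes called, 3251 were free of overlap. These shares are the background for the gene lists below.

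The targeted genes were read first. XLG2 (AT4G34390, TAIR10.1 chr4:16441086-16445017), the extra-large subunit best known from immunity, had 20.9, 15.4 and 13.9 CPM in xlg1,2,3 and 95.1, 96.7 and 93.8 CPM in Col-0. XLG3 (AT1G31930, chr1:11464934-11469207) had 11.7, 11 and 14.1 CPM in xlg1,2,3 and 58.6, 57.3 and 50.6 CPM in Col-0. Every xlg1,2,3 library was below every Col-0 library for both genes. XLG2 was 5.64-fold lower (-2.50 ± 0.22, edgeR adjusted p = 2.8e-10) and XLG3 4.56-fold lower (-2.19 ± 0.11, edgeR adjusted p = 1.2e-16). XLG1 (AT2G23460, chr2:9995465-9999122) went the other way. It had 120, 109 and 112 CPM in xlg1,2,3 and 66.0, 68.0 and 71.5 CPM in Col-0, a rise of 1.66-fold (0.73 ± 0.08, edgeR adjusted p = 8.5e-09). The files give a total per gene and do not show where in a gene the reads lie, so these values do not say whether any of the 3 transcripts is complete. The 3' end of XLG1 overlaps the start of the neighbour RUS4, which had a mean of 2.72 CPM in xlg1,2,3 and 2.68 CPM in Col-0.

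Of the other subunits GPA1 alone was called. It had 91.6, 96.7 and 94.3 CPM in xlg1,2,3 and 114, 125 and 116 CPM in Col-0 (-0.33 ± 0.08, edgeR adjusted p = 0.0039), and the libraries of the genotypes did not overlap. AGB1 had 172, 126 and 139 CPM in xlg1,2,3 and 129, 124 and 136 CPM in Col-0 and was not called (adjusted p = 0.34 in edgeR). The Gγ genes AGG1, AGG2 and AGG3 were not called either, except AGG3 without xlg1,2,3 replicate 2 (edgeR adjusted p = 0.037). AGG1 averaged 13.5 CPM in xlg1,2,3 against 16.9 CPM in Col-0. AGG3 stayed below 0.4 CPM in all 6 libraries, with 17 counts in xlg1,2,3 and 5 in Col-0 (1.71 ± 0.64). RGS1, the regulator that speeds GTP hydrolysis on GPA1, and the Gβγ-binding proteins NDL1, NDL2 and NDL3 had differences between -0.33 and 0.23, none of them called. Left-out libraries brought 2 of these differences to a call, NDL1 without xlg1,2,3 replicate 3 and RGS1 without xlg1,2,3 replicate 1, both at an edgeR adjusted p of 0.05. Without replicate 3 of both genotypes NDL1 was lower by -0.45 (edgeR adjusted p = 0.018). Of the 12 G-protein genes, 1 rose and 3 fell in xlg1,2,3.

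**Figure D1:**
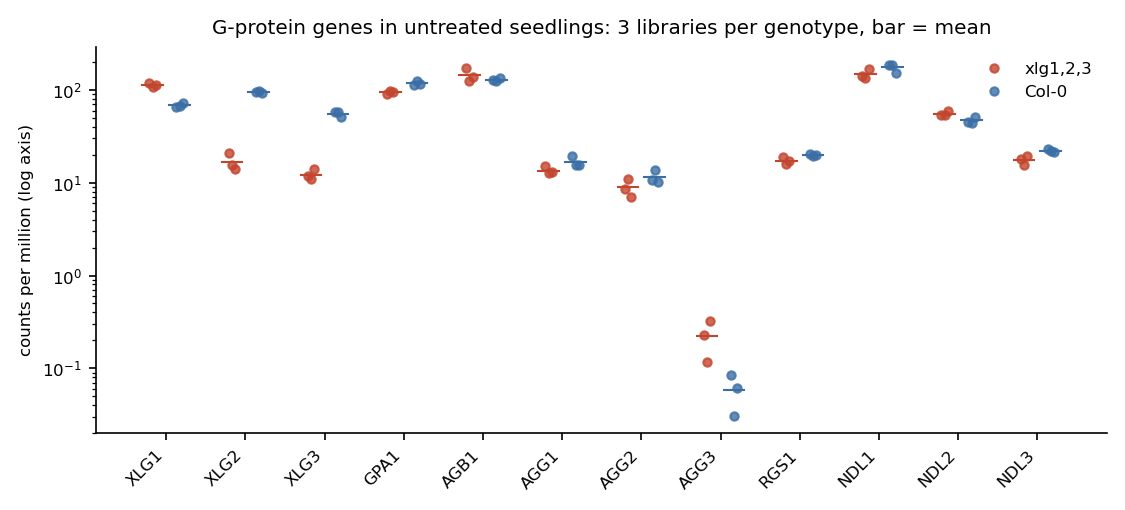
CPM (log axis) of 12 G-protein genes in untreated seedlings, with 1 point per library, xlg1,2,3 left of Col-0, and bars at the mean of 3 libraries. XLG2 and XLG3 sit far lower in xlg1,2,3 and XLG1 sits higher, while AGG3 is below 0.4 CPM in every library.

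The 5 annotated genes on each side of XLG1, XLG2 and XLG3 were examined, 30 in all, of which 18 were expressed enough to test. Of these 18, 2 were called, against 16.3% of all genes, so calls were not more frequent there. AT4G34400, the next gene beyond XLG2, was called lower, with a mean of 0.0577 CPM in xlg1,2,3 and 0.759 CPM in Col-0 (-3.34 ± 0.59, edgeR adjusted p = 9.5e-05). It rests on few counts, 6 in xlg1,2,3 and 62 in Col-0. AT1G31935, the next gene beyond XLG3, was called higher, with 1.77 CPM in xlg1,2,3 and 0.785 CPM in Col-0 (1.17 ± 0.39, edgeR adjusted p = 0.032). The call of AT1G31935 was lost (edgeR adjusted p = 0.19, 0.071 and 0.12) without Col-0 replicate 1, Col-0 replicate 3 or xlg1,2,3 replicate 2. No neighbour of XLG1 was called among the 3 tested, by edgeR's adjusted p.

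The 12 largest rises were taken among called genes with at least 10 CPM in the higher genotype and no overlap between libraries. HEI10 (AT1G53490, chr1:19963267-19966952), a RING-type protein that marks meiotic crossover sites, was the largest. It had 28.7, 29.8 and 29.6 CPM in xlg1,2,3 and 0.844, 1.11 and 1.85 CPM in Col-0, a 24.8-fold rise (4.63 ± 0.16, edgeR adjusted p = 1.5e-20). The xlg1,2,3 libraries lay within 2 CPM of each other. RAB18, a dehydrin induced by abscisic acid and drought, had 16.4, 11.8 and 14.5 CPM in xlg1,2,3 and 1.63, 1.60 and 2.35 CPM in Col-0, a 7.9-fold rise (2.98 ± 0.43). TMM, a receptor-like protein that patterns stomata, had 21.9, 24.7 and 25.7 CPM in xlg1,2,3 and 4.42, 4.41 and 5.68 CPM in Col-0, a 5.04-fold rise (2.33 ± 0.26). AT1G22690, a gibberellin-regulated family protein, had 89.8, 106 and 79.8 CPM in xlg1,2,3 and 15.2, 17.3 and 13.1 CPM in Col-0.

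Several of the rises were highest in the replicate 1 library of xlg1,2,3. FAMT, a methyltransferase for farnesoic acid, had 34.1, 14.7 and 6.91 CPM in xlg1,2,3 and 2.19, 0.525 and 0.618 CPM in Col-0 (3.98 ± 0.50). AT2G38240, an oxygenase of the family that includes the jasmonate-inactivating enzymes, had 218, 121 and 105 CPM in xlg1,2,3 and 12.9, 13.9 and 16.4 CPM in Col-0 (3.37 ± 0.33). Both genes separated the genotypes in every library, which the rule for the largest rises required. PRN, a pirin, had 70.9, 52.3 and 33.4 CPM in xlg1,2,3 and 4.72, 5.46 and 11.3 CPM in Col-0. The other 5 were the ceramidase AT2G38010, the aspartyl protease AT5G19110, the lipase AT5G55050, the TRAF-like AT5G26260 and the lipid-transfer family protein AT4G12490, with differences from 2.37 to 2.96.

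The 12 largest falls were taken by the same rule. CYP71A12, a cytochrome P450 of the camalexin and indole-carbonyl pathways, had 0.317, 0.0291 and 0.32 CPM in xlg1,2,3 and 86.1, 87.7 and 61.6 CPM in Col-0 (-8.58 ± 0.39, edgeR adjusted p = 1.7e-17). Its near-identical neighbour CYP71A13 had at most 0.0617 CPM in any library, and how reads were divided between the copies is not known. AT1G26390, a berberine-bridge-type oxidase, had 0, 0.0291 and 0.064 CPM in xlg1,2,3 and 10.9, 14.2 and 7.66 CPM in Col-0. With 2 counts in all in xlg1,2,3 against 973 in Col-0, its level was 490-fold lower after adjustment for depth, with an exact 95% interval from 135 to 4054 that covers counting error only. Its relative AT1G26410 had 0.0863, 0.116 and 0 CPM in xlg1,2,3 and 11.6, 11.5 and 7.72 CPM in Col-0.

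Both chitinase genes in the group were far lower in xlg1,2,3. CHIA, a secreted chitinase, had 1.06, 1.31 and 0.768 CPM in xlg1,2,3 and 27.8, 32.4 and 24.2 CPM in Col-0 (-4.68 ± 0.24). CHI (AT2G43570) had 1.09, 0.93 and 1.22 CPM in xlg1,2,3 and 19.2, 19.1 and 13.8 CPM in Col-0 (-4.04 ± 0.25). F6'H1, which makes the precursor of the coumarin scopoletin, had 0.633, 0.639 and 0.384 CPM in xlg1,2,3 and 15.9, 23.2 and 11.7 CPM in Col-0 (-4.86 ± 0.35). None of these libraries overlapped between the genotypes, as the rule required. Germin-like GLP9, the thioredoxin-family AT5G38900, the extensin-like AT1G26250, AT1G13520 of unknown function and the methyltransferase CCOAMT were also among the 12, with differences from -6.02 to -3.39.

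One fall was in a housekeeping family. AT4G17390, which encodes a ribosomal protein of the large subunit (L15e), had 7.45, 8.57 and 9.79 CPM in xlg1,2,3 and 117, 116 and 114 CPM in Col-0, a 13.5-fold fall (-3.76 ± 0.17, edgeR adjusted p = 1.4e-17). Both genotypes were tight around their means. The gene has a near-identical copy elsewhere in the genome, so its value is uncertain where reads could be divided between copies.

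**Figure D2:**
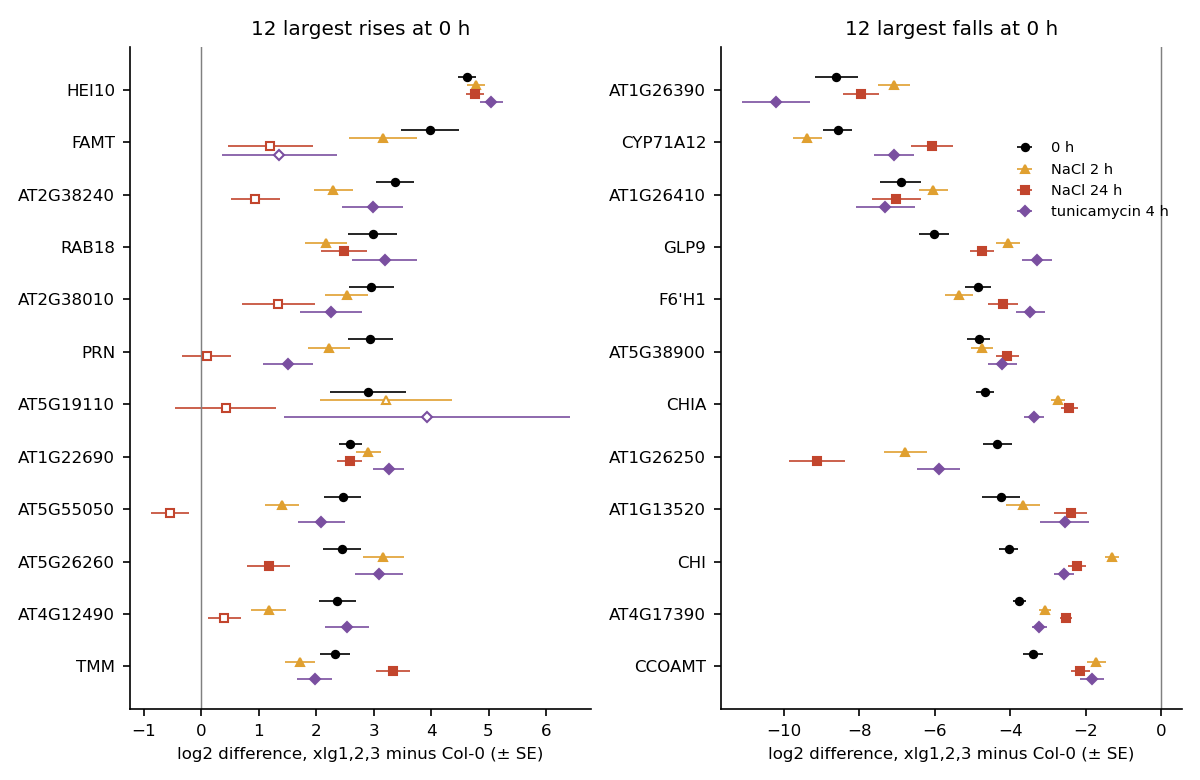
Log2 differences of xlg1,2,3 minus Col-0 (± SE) for the 12 largest rises and the 12 largest falls at 0 h, with the same difference in the libraries of the other conditions. Filled symbols were called at an adjusted p under 0.05. All falls stay left of 0 in every condition, while most open symbols belong to rises at 24 h in NaCl.

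Of 329 tested members of 30 gene lists, 68 rose and 39 fell in xlg1,2,3. The list of pattern-triggered immunity, which holds receptors, kinases and early response genes of microbial pattern perception, had 5 of 17 members called lower, against 8.5% of all genes, and its median difference was -0.28. FRK1, a receptor kinase gene widely used as an immune reporter, had 5.96, 5.11 and 7.23 CPM in xlg1,2,3 and 61.9, 48.9 and 49.2 CPM in Col-0 (-3.15 ± 0.32). PER4, a cell wall peroxidase, had 22.5, 9.65 and 7.68 CPM in xlg1,2,3 and 96.1, 85.5 and 73.7 CPM in Col-0 (-2.65 ± 0.42). NHL10 (-2.07), the peptide precursor PROPEP3 (-2.74) and the transcription factor WRKY22 (-1.08) were the others.

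FLS2, BIK1, EFR, CERK1, BAK1, RBOHD and MPK3 of the same list were not called. FLS2, the flagellin receptor, had 110, 71.5 and 62.3 CPM in xlg1,2,3 and 63.7, 60.5 and 63.0 CPM in Col-0 (0.39 ± 0.20). BIK1, the kinase that XLG2 is known to act with, had 176, 122 and 121 CPM in xlg1,2,3 and 155, 142 and 133 CPM in Col-0 (-0.04 ± 0.14). The differences of EFR, CERK1, BAK1, RBOHD and MPK3 lay between -0.28 and 0.10.

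In the list of indole glucosinolate and camalexin genes, 4 of 20 tested members were called higher and 8 lower, with a median of -0.21. The higher ones were CYP79B3, SUR1 and UGT74B1, enzymes of the glucosinolate core, and GGP1, which works on glutathione conjugates, with differences from 0.56 to 0.74, and without Col-0 replicate 2 they numbered 2. Besides CYP71A12 the lower ones were the camalexin enzyme PAD3, the glutathione transferase GSTF6, the modifying enzymes CYP81F2, IGMT1 and IGMT2, the regulator MYB122 and CYP82C2. PAD3 had 2.76, 1.08 and 0.832 CPM in xlg1,2,3 and 6.07, 6.20 and 6.80 CPM in Col-0 (-1.96 ± 0.29). IGMT2, a methyltransferase of indole glucosinolates, had 34.0, 17.6 and 18.6 CPM in xlg1,2,3 and 114, 88.2 and 89.0 CPM in Col-0 (-2.04 ± 0.35). CYP82C2 had 0 counts in all 3 xlg1,2,3 libraries and 48 counts in Col-0. With xlg1,2,3 set to 3 counts over its libraries, the upper limit that a count of 0 allows, the fall was 16.1-fold. This bound leaves out the counting error of Col-0 and the spread between libraries. The 2 called members of the aliphatic glucosinolate list, SOT18 (0.60) and UGT74C1 (0.45), were higher, of 6 tested. Single left-out libraries ended the call of SOT18 (xlg1,2,3 replicate 2, edgeR adjusted p = 0.054) and of UGT74C1 (Col-0 replicate 2, 0.098, and xlg1,2,3 replicate 1, 0.053).

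Salicylic acid genes moved both ways. Of 14 tested, 4 rose and 2 fell, and the median was -0.03. ICS1, which starts salicylic acid synthesis, had 13.6, 11.1 and 9.53 CPM in xlg1,2,3 and 2.64, 2.65 and 2.53 CPM in Col-0 (2.14 ± 0.31, edgeR adjusted p = 4.2e-06). PBS3, which conjugates its product (1.75), SAG101 (0.70) and WRKY70 (0.99) were also higher. FMO1, which makes the systemic resistance signal N-hydroxypipecolic acid, had 0.0863, 0.145 and 0 CPM in xlg1,2,3 and 7.28, 7.16 and 3.95 CPM in Col-0 (-5.99 ± 0.60). DLO1, a salicylic acid hydroxylase, was the second member lower (-1.42), and it lost its call without any 1 of the libraries other than Col-0 replicate 3. PR1 had no count in any of the 6 libraries, and PR2 and PR5 were below 0.1 CPM.

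Promoter sequences of the falling genes were read from the 250 bases before the annotated gene start in TAIR10.1 (RefSeq). The W-box, TTGACC or TTGACT on either strand, is the element bound by WRKY transcription factors. It was present in 28.7% of 19991 promoters of tested protein-coding genes, in 51.7% of 592 promoters of genes lower by at least 2-fold and in 26.1% of 594 promoters of genes higher by at least 2-fold. Of the 12 largest falls, 8 held it. The promoter of CHI, chosen after the values were seen as the gene with the smallest p among these 8, is shown with the motif in capitals, starting 49 bases before the gene start (chr2:18077518-18077767, minus strand).
CHI: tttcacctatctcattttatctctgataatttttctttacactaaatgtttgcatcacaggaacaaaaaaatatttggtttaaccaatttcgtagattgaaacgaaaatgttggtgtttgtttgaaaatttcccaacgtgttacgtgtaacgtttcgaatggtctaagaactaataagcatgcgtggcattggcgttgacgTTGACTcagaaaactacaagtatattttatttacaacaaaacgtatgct

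Genes of jasmonate synthesis and breakdown were higher in xlg1,2,3. Jasmonates are fatty-acid-derived hormones of wounding and defence, made by lipoxygenases (LOX), AOS, AOC and OPR3, conjugated to isoleucine by JAR1, inactivated by CYP94 and JOX enzymes, and sensed through COI1 and the JAZ repressors that hold back MYC transcription factors. Of the synthesis list, 10 of 13 tested genes rose (median 1.34), against 7.79% of all genes. All 7 catabolism genes rose (median 1.15). Of 17 signalling genes 6 rose and 1 fell (median 0.47). Of the output list, 2 of 6 tested rose.

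LOX2, the plastid lipoxygenase at the start of the pathway, had 53.8, 37.1 and 47.1 CPM in xlg1,2,3 and 10.5, 8.33 and 8.71 CPM in Col-0, a 4.99-fold rise (2.32 ± 0.22, edgeR adjusted p = 2.8e-09). AOS had 233, 108 and 98.3 CPM in xlg1,2,3 and 46.9, 39.8 and 42.9 CPM in Col-0 (1.76 ± 0.37). AOC2 had 482, 308 and 200 CPM in xlg1,2,3 and 131, 117 and 106 CPM in Col-0 (1.48 ± 0.26). AOC1, AOC2 and AOC3 all rose, by 1.38 to 1.48, while AOC4 had 3.37, 3.46 and 3.13 CPM in xlg1,2,3 and 4.08, 4.32 and 3.71 CPM in Col-0 and was not called. These 4 genes are close copies, so reads may have been divided between them. JAR1 rose by 0.50 ± 0.09, and ACX1 of the β-oxidation step was not called (-0.14 ± 0.09).

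The genes that remove the active hormone rose with those that make it. CYP94B1 had 18.6, 13.2 and 10 CPM in xlg1,2,3 and 4.13, 3.39 and 4.39 CPM in Col-0 (1.84 ± 0.21). JOX2, a jasmonate oxidase, had 816, 554 and 508 CPM in xlg1,2,3 and 301, 266 and 282 CPM in Col-0 (1.15 ± 0.27). CYP94B3, CYP94C1, the sulfotransferase gene ST2A and the amidohydrolases ILL6 and IAR3 had differences from 0.78 to 1.59. Among the repressors, JAZ9 had 189, 166 and 132 CPM in xlg1,2,3 and 61.8, 58.4 and 47.6 CPM in Col-0 (1.53 ± 0.14). JAZ2, JAZ3, JAZ4, JAZ8 and JAZ12 also rose, and JAZ11 fell (-0.30 ± 0.09). The receptor gene COI1 and the factors MYC2, MYC3 and MYC4 were not called. MYC2 had 141, 86.3 and 90.5 CPM in xlg1,2,3 and 71.8, 53.6 and 61.5 CPM in Col-0 (adjusted p = 0.17 in edgeR).

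Of 11 downstream genes in the output list 6 were expressed enough to test, and 2 of these were called higher (median 0.54). CLH1, a chlorophyllase, had 11.1, 6.54 and 5.05 CPM in xlg1,2,3 and 1.18, 0.988 and 0.927 CPM in Col-0 (2.87 ± 0.34), and the aminotransferase gene TAT3 had 3.11, 0.959 and 0.512 CPM in xlg1,2,3 and at most 0.185 CPM in Col-0. The storage proteins VSP1 and VSP2 stayed at or below 0.141 CPM in all 6 libraries. PDF1.2 and THI2.1 had no counts.

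The size of the jasmonate rise differed among the xlg1,2,3 libraries. Replicate 1 was the highest of the 3 in 22 of the 23 synthesis, catabolism and signalling genes called higher, the exception being JAZ4. Without that library 16 of the 23 were still called. Of the synthesis genes 6 of the 10 were, and JAZ11 was no longer called lower, as also without Col-0 replicate 2. In all 23 genes every xlg1,2,3 library was above every Col-0 library. That is common among called genes, since 3251 of all 3397 called had no overlap. The summed level of the heat and touch list, genes that respond to handling, was 4267, 3006 and 2738 CPM in xlg1,2,3 and 2821, 2807 and 2399 CPM in Col-0, highest in the same xlg1,2,3 library. The median difference of that list was 0.54, and 8 of its 10 tested genes had a positive difference. None of the 10 was called by edgeR or DESeq2 in the fit of all groups, and 1 had an unadjusted p under 0.05. In a fit of only these groups edgeR called 1 higher. Replicate 1 was also the highest xlg1,2,3 library in the summed levels of other lists. These included pattern-triggered immunity (1745, 1147 and 1246 CPM) and indole glucosinolates and camalexin (6812, 4640 and 4467 CPM). In the abscisic acid core list it was the lowest (1309, 1369 and 1390 CPM). The part of handling in the jasmonate values was not tested.

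**Figure D3:**
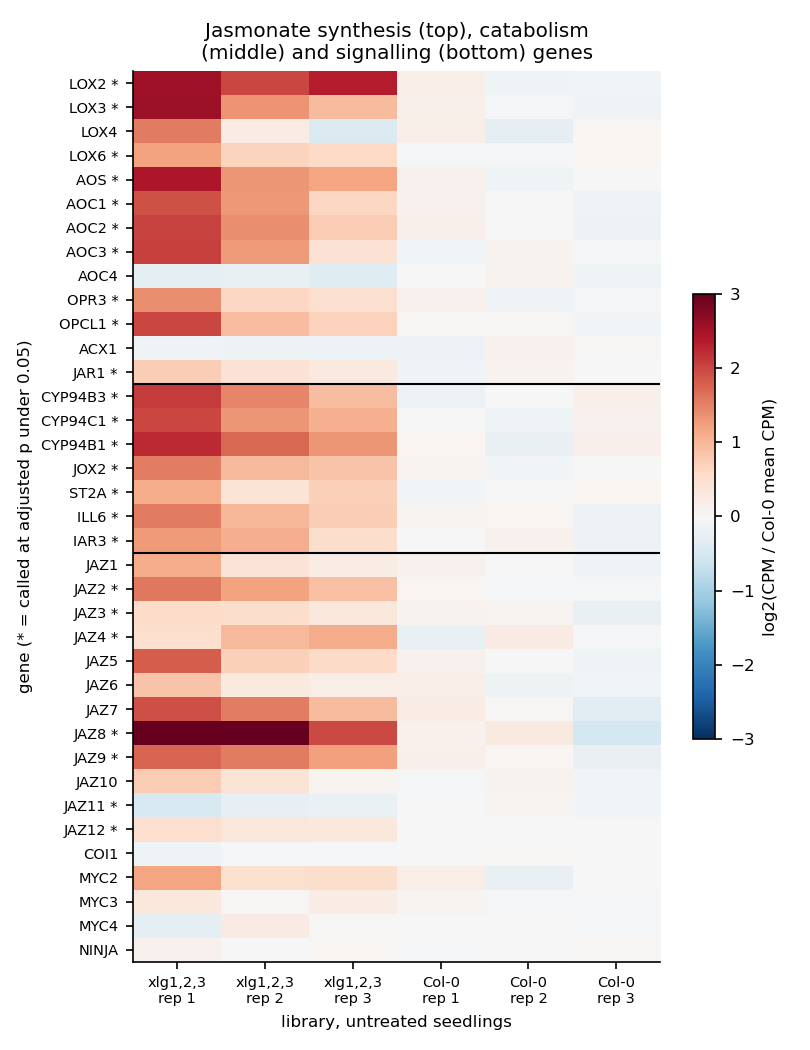
Level of each tested jasmonate gene in each untreated library, as log2 of its CPM over the Col-0 mean, with xlg1,2,3 libraries on the left, synthesis genes at the top, catabolism in the middle and signalling at the bottom. The 3 xlg1,2,3 columns are red for most genes and replicate 1 is the deepest, while COI1, NINJA, AOC4 and ACX1 stay pale.

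The G-box CACGTG, the same on both strands, is the core element bound by MYC and other bHLH and bZIP factors. It was present in 7.47% of all promoters of tested genes, in 11.8% of those of genes higher by at least 2-fold, in 4.05% of those of genes lower by at least 2-fold and in 4 of 25 jasmonate list genes called higher. The 3 of these with the smallest p are shown with the motif in capitals, since they are a synthesis gene and 2 repressors that rose together. The motif starts 66 bases before the gene start in JAZ2 (chr1:28150447-28150696, minus strand), 6 bases in AOS (chr5:17099596-17099845, minus strand) and 10 bases in JAZ8 (chr1:10596102-10596351, plus strand).
JAZ2: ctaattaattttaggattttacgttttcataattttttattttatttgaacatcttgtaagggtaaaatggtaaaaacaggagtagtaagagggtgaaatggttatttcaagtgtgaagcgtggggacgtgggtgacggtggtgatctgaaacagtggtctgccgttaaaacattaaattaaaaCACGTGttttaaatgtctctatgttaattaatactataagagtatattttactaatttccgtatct
AOS: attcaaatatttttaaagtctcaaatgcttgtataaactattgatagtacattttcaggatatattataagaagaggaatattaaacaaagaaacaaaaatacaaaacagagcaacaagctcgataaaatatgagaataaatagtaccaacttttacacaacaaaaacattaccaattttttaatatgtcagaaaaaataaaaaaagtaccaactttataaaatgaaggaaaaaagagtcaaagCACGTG
JAZ8: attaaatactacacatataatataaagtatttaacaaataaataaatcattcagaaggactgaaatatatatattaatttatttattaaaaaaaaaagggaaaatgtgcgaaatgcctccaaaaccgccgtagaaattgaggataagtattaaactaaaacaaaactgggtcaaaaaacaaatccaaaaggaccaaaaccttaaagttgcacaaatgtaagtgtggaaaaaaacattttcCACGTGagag

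Abscisic acid is the hormone of drought and seed dormancy. Of 28 receptors, phosphatases, kinase-pathway factors and metabolic enzymes of the core list, 2 fell (PYL7, -0.61 ± 0.14, and CYP707A2, -0.73 ± 0.17, the last not called in a fit of only these groups), and the median was 0.01. NCED3, the rate-limiting enzyme of synthesis, had 5.64, 2.41 and 1.28 CPM in xlg1,2,3 and 3.32, 2.41 and 2.72 CPM in Col-0. Of 19 tested drought and abscisic acid output genes 8 rose, and the median was 0.79. Besides RAB18 these were RD29A, RD29B, RD20, KIN2, LTI30, P5CS1 and LEA4-5. The count was 3 without xlg1,2,3 replicate 1 and 4 without Col-0 replicate 1 or Col-0 replicate 2. RD29B had 8.72, 4.42 and 5.31 CPM in xlg1,2,3 and 1.27, 1.05 and 1.54 CPM in Col-0 (2.31 ± 0.37). P5CS1, which makes the osmolyte proline, had 44.7, 39.8 and 35.7 CPM in xlg1,2,3 and 23.3, 20.8 and 25.8 CPM in Col-0 (0.79 ± 0.17).

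Seed storage and oil body genes were higher in 2 of the 3 xlg1,2,3 libraries than in Col-0. Their summed level was 173, 29.4 and 117 CPM in xlg1,2,3 and 30.7, 26.1 and 31.4 CPM in Col-0. CRA1, a cruciferin storage protein, had 45.1, 0.291 and 25.3 CPM in xlg1,2,3 and 0.0281, 0.185 and 0.0618 CPM in Col-0. Replicate 2 of xlg1,2,3 was at the level of Col-0. The list had 3 of 15 members called higher, SESA1, SESA2 and SESA3, albumins whose close copies may share reads, and each overlapped Col-0 through that replicate. The count was 9 without replicate 2 and 1 without any other 1 of the 6 libraries. Seed transcripts were not limited to this genotype, since CRA1 also reached 55.4 CPM in 1 Col-0 library after 24 h in NaCl. The part of seed RNA in the drought list was not tested. In xlg1,2,3 replicate 2, RAB18 was at 11.8 CPM, above the highest Col-0 value of 2.35 CPM. RD29B (4.42 CPM, highest Col-0 value 1.54 CPM), P5CS1 (39.8 and 25.8 CPM) and LEA4-5 (4.82 and 2.72 CPM) were above it too. RD29A was at 260 CPM, below the highest Col-0 value of 277 CPM. RD20, KIN2 and LTI30 are not compared here.

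Cytokinin response genes were lower. Of 13 tested, 6 fell, against 8.5% of all genes, and the median was -0.38. They were the type-A response regulators ARR4, ARR5, ARR7, ARR8 and ARR9, which damp cytokinin signalling and are induced by it, and PUB2. ARR4 had 157, 166 and 163 CPM in xlg1,2,3 and 233, 235 and 238 CPM in Col-0 (-0.54 ± 0.09, edgeR adjusted p = 3.3e-05). ARR7 had 84.3, 87.3 and 61.4 CPM in xlg1,2,3 and 134, 114 and 114 CPM in Col-0 (-0.63 ± 0.13). The degradation genes CKX3, CKX4 and CKX5 were not called, with differences from 0.02 to 0.42.

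Auxin response genes were higher in 4 of 7 tested (median 0.78). GH3.3, which conjugates auxin and jasmonate to amino acids, had 379, 339 and 337 CPM in xlg1,2,3 and 100, 97.0 and 190 CPM in Col-0 (1.45 ± 0.39, edgeR adjusted p = 0.0081), a call lost without Col-0 replicate 1 (0.057) or Col-0 replicate 2 (0.059). IAA29 (2.06), IAA3 (0.99) and GH3.5 (0.48) also rose. GH3.5 kept its call without xlg1,2,3 replicate 2 alone, with an edgeR adjusted p of 0.05 to 0.15 otherwise. Flavonoid genes were higher in 4 of 10 tested (median 0.89). TT4, the chalcone synthase that starts the pathway, had 4.60, 4.13 and 4.16 CPM in xlg1,2,3 and 0.816, 0.71 and 1.3 CPM in Col-0 (2.27 ± 0.32). F3H, TT7 and FLS1 rose by 0.91 to 1.25, FLS1 losing its call without Col-0 replicate 3 (0.051) or xlg1,2,3 replicate 1 (0.071). Genes of the anthocyanin branch were nearly silent, with DFR and LDOX at 0 counts in all 6 libraries. In the ethylene list 1 of 7 fell, the receptor gene ERS2 (-0.36), a call that DESeq2 did not make and that was lost without any 1 of the libraries except xlg1,2,3 replicate 3 (edgeR adjusted p = 0.084 to 0.32).

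Ion transport genes were of interest because the series is about salt. Of 12 sodium and potassium transport genes 3 fell in xlg1,2,3 before any salt was added (median -0.15). SOS3, the calcium sensor of the salt overly sensitive pathway, had 8.86, 10.1 and 10.5 CPM in xlg1,2,3 and 25.6, 28.8 and 22.0 CPM in Col-0 (-1.39 ± 0.14, edgeR adjusted p = 3.8e-09). CHX17, a cation exchanger, had 1.15, 0.814 and 0.832 CPM in xlg1,2,3 and 3.57, 4.51 and 4.08 CPM in Col-0 (-2.09 ± 0.37), and the potassium channel gene AKT1 fell by 0.49. The libraries of the genotypes did not overlap for these genes. In the iron list FER1, a ferritin, rose (0.59) and F6'H1 fell, of 7 tested. PHT1;4, a phosphate transporter, was the 1 of 6 phosphate genes called (1.13). XTH24 was the 1 of 18 cell wall growth genes called (0.28). In the clock list, RVE8 rose (0.35) and PRR5 fell (-0.46), of 12. Without xlg1,2,3 replicate 1 the calls of FER1, PHT1;4, XTH24 and RVE8 were lost, with edgeR adjusted p of 0.057, 0.13, 0.17 and 0.17. Col-0 replicate 2 (FER1, 0.075) and Col-0 replicate 1 (PHT1;4, 0.09) did the same. XTH24 kept its call only without xlg1,2,3 replicate 2, and RVE8 lost its call without any 1 of the 6 libraries (0.055 to 0.17). None of 13 genes of the unfolded protein response was called by edgeR or DESeq2 in the fit of all groups, and 1 had an unadjusted p under 0.05, while edgeR called 2 lower in a fit of only these groups.

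**Figure D4:**
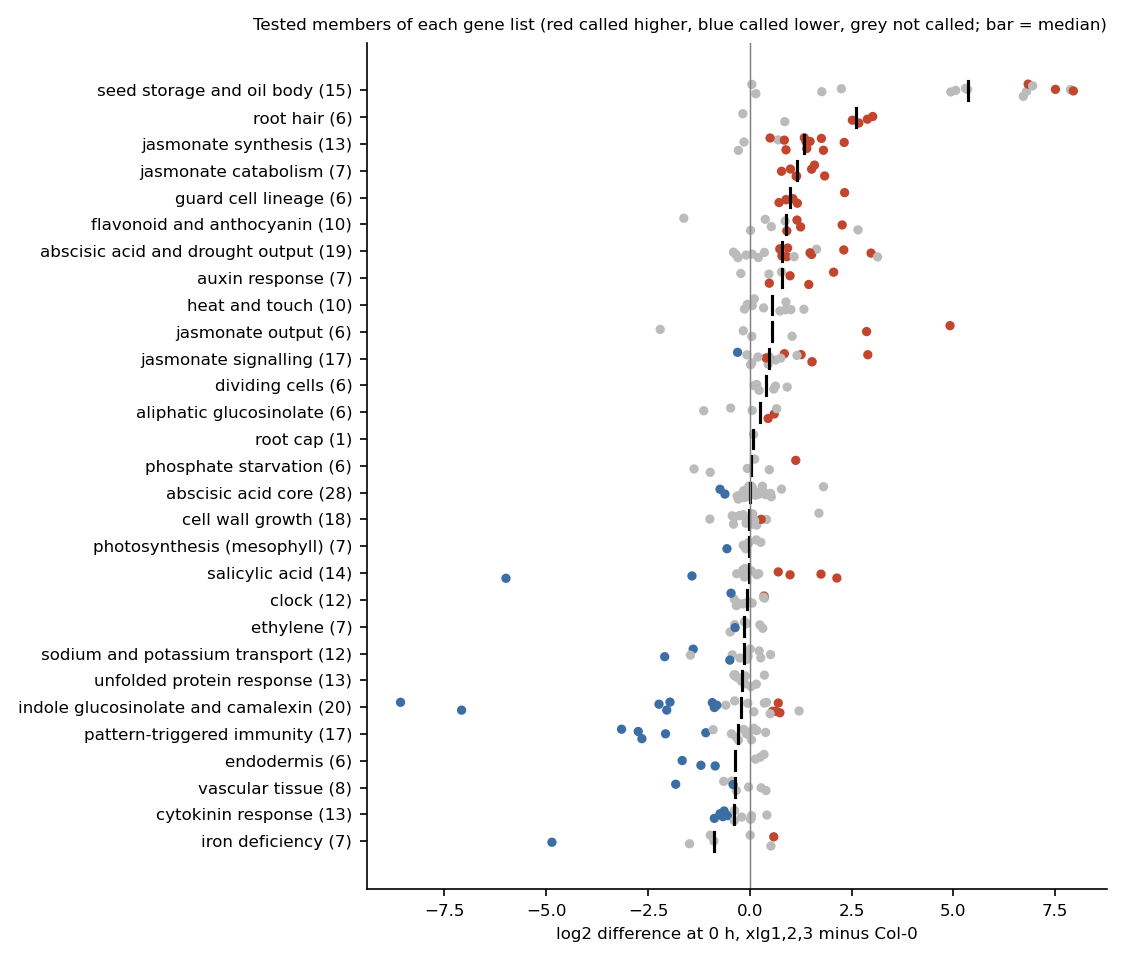
Log2 difference at 0 h of every tested member of each gene list, with the number tested in brackets and the list's median as a bar. Red points rose and blue points fell in xlg1,2,3, and lists are ordered by their median, from seed storage (5.35) at the top to iron deficiency (-0.88) at the bottom.

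Markers of cell types were read to describe the tissue. In RNA from whole seedlings, a change in the number of cells of a type and a change in RNA per cell cannot be told apart. Guard cell lineage genes were higher in xlg1,2,3 in 5 of 6 tested (median 0.98), and their summed level was 99.0, 94.8 and 88.0 CPM in xlg1,2,3 and 37.6, 41.4 and 45.5 CPM in Col-0. Besides TMM, the entry factor SPCH had 4.43, 6.71 and 6.4 CPM in xlg1,2,3 and 3.21, 3.21 and 4.32 CPM in Col-0 (0.72 ± 0.20). FAMA, which completes guard cell formation, had 47.6, 41.5 and 33.9 CPM in xlg1,2,3 and 20.4, 22.4 and 23.7 CPM in Col-0 (0.89 ± 0.17). MYB60, a factor of mature guard cells, had 17.3, 15.1 and 16.5 CPM in xlg1,2,3 and 7.51, 8.12 and 7.85 CPM in Col-0 (1.06 ± 0.15), and the potassium channel gene KAT1 rose by 1.17. No library of xlg1,2,3 overlapped Col-0 for the genes called. MUTE, the remaining member, was at or below 0.407 CPM in all 6 libraries.

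Root markers moved in both directions at low levels. Of 6 tested root hair genes 4 rose (EXPA7, COW1, PRP3 and LRX1), all at or below 0.576 CPM in xlg1,2,3 and 0.185 CPM in Col-0. In a fit of only these groups 1 of the 4 was called, and LRX1 lost its call without xlg1,2,3 replicate 2 or 3 or without Col-0 replicate 1 or 2 (edgeR adjusted p = 0.076 to 0.11). Of 6 endodermis genes 3 fell. CASP1, which builds the Casparian strip, had 1.81, 1.71 and 2.18 CPM in xlg1,2,3 and 3.71, 5.96 and 2.97 CPM in Col-0 (-1.20 ± 0.22). ESB1 (-0.85) was also lower, losing its call without Col-0 replicate 2 (edgeR adjusted p = 0.065). In the vascular list the xylem protease gene XCP1 (-1.82) and the sucrose transporter gene SUC2 (-0.41) fell, of 8. Neither was called without Col-0 replicate 2 (edgeR adjusted p = 0.089 for XCP1 and 0.11 for SUC2), and XCP1 was lost without xlg1,2,3 replicate 2 (0.052) and SUC2 without xlg1,2,3 replicate 1 (0.062). LHCB1.1, which has close copies, was the 1 of 7 photosynthesis genes called (-0.56), and it was not called without Col-0 replicate 1 (0.17) or xlg1,2,3 replicate 2 (0.068). Summed levels of that list were 26635, 25118 and 25132 CPM in xlg1,2,3 and 27900, 24454 and 25489 CPM in Col-0. None of 6 genes of dividing cells was called by edgeR or DESeq2, with 1 at an unadjusted p under 0.05. Of 3 root cap markers 1 was expressed enough to test, and it was not called.

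The same genotypes were compared in the libraries of the treated seedlings, which share no library with the 0 h comparison. In xlg1,2,3 against Col-0, 14% of genes were called after 2 h in NaCl, 19.5% after 24 h and 13.2% after 4 h in tunicamycin. These 2919, 4070 and 2745 genes became 1340, 2434 and 1375 in fits of only the groups compared. The shares that follow are from the fit of all groups. Of the 1624 genes higher at 0 h, 696 (42.9%) were higher at 2 h, which is 49.2% of the 1416 genes higher there and compares with 6.79% of all genes. At 24 h it was 469 (28.9%, or 25.1% of 1870), against 8.97% of all genes. In tunicamycin it was 545 (33.6%, or 47.2% of 1155), against 5.54%. Of the 1773 genes lower at 0 h, 689 (38.9%, or 45.8% of 1503), 662 (37.3%, or 30.1% of 2200) and 486 (27.4%, or 30.6% of 1590) were lower at 2 h, at 24 h and in tunicamycin, against 7.21%, 10.5% and 7.62% of all genes. In all 4 conditions 241 genes were higher and 305 lower.

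All 12 of the largest falls were lower in xlg1,2,3 in every condition. Of the 12 largest rises, HEI10, RAB18, AT1G22690, AT5G26260 and TMM were higher in every condition. HEI10 averaged 38.9 CPM in xlg1,2,3 and 1.48 CPM in Col-0 at 2 h, 37.2 CPM in xlg1,2,3 and 1.34 CPM in Col-0 at 24 h, and 33.5 CPM in xlg1,2,3 and 1 CPM in Col-0 in tunicamycin. AT4G17390 averaged 12.3 CPM in xlg1,2,3 and 103 CPM in Col-0 at 2 h, 24.7 CPM in xlg1,2,3 and 141 CPM in Col-0 at 24 h, and 11.9 CPM in xlg1,2,3 and 111 CPM in Col-0 in tunicamycin. XLG2 and XLG3 were lower in every condition. XLG1 was still called higher at 2 h, with 69.4 CPM in xlg1,2,3 and 58.5 CPM in Col-0 (0.25 ± 0.08, edgeR adjusted p = 0.023). It was not called at 24 h, with 74.1 CPM in xlg1,2,3 and 79.0 CPM in Col-0. It was called lower in tunicamycin, with 71.6 CPM in xlg1,2,3 and 87.9 CPM in Col-0 (-0.30 ± 0.09, edgeR adjusted p = 0.028). The change of its difference from 0 h was -0.49 ± 0.11 at 2 h, -0.83 ± 0.11 at 24 h and -1.03 ± 0.12 in tunicamycin, each called, as were the changes of 2.63%, 9.23% and 5.71% of all genes. In a fit of only the groups compared, 80 genes changed from 0 h to 2 h, against 549 in the fit of all groups.

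The median jasmonate difference was smaller in the treated seedlings. Of the 37 synthesis, catabolism and signalling genes, 23 were higher at 0 h, 11 at 2 h, 4 at 24 h and 5 in tunicamycin. The median difference was 0.89 at 0 h, 0.44 at 2 h, -0.10 at 24 h and 0.44 in tunicamycin. The change from 0 h to 24 h itself was called negative in 18 of the 37 genes, against 4.32% of all genes, and positive in 1. It was called negative in 2 of the 37 at 2 h and in 4 in tunicamycin, so for most of these genes a smaller difference was not shown there. AOC2 averaged 20.9 CPM in xlg1,2,3 and 18.5 CPM in Col-0 at 24 h. LOX2 was still higher, with 30.8 CPM in xlg1,2,3 and 15.5 CPM in Col-0. Guard cell lineage genes were called higher in 5, 5 and 4 of 6 at 2 h, at 24 h and in tunicamycin, and cytokinin response genes lower in 1 of 13 in each of them. For cytokinin genes the change from 0 h was called positive in 5 of 13 at 24 h and in 4 in tunicamycin, against 4.91% and 2.09% of all genes. The jasmonate and cytokinin changes use the same 0 h libraries, and the lists were chosen with earlier results of these data known. A smaller difference under treatment can therefore come from that choice, which was not tested. The changes were not refitted with libraries left out, such as xlg1,2,3 replicate 1. The immune list was lower in 7 of 17 genes at 2 h, in 12 at 24 h and in 2 in tunicamycin. SOS3 remained lower in all 3, with 18.5 CPM in xlg1,2,3 and 30.6 CPM in Col-0 at 2 h, 18.8 CPM in xlg1,2,3 and 35.7 CPM in Col-0 at 24 h, and 25.4 CPM in xlg1,2,3 and 39.3 CPM in Col-0 in tunicamycin.

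**Figure D5:**
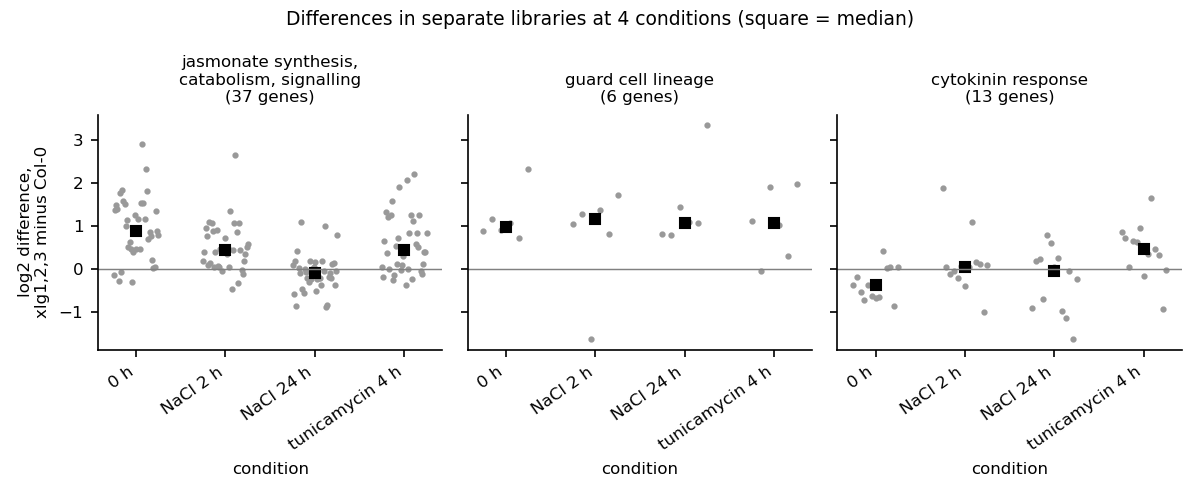
Log2 difference of xlg1,2,3 minus Col-0 at 0 h, 2 h and 24 h in NaCl and 4 h in tunicamycin for the tested genes of 3 groups, with 1 point per gene and a square at the median. The jasmonate median is 0.89 at 0 h and -0.10 at 24 h, the guard cell median stays near 1, and the cytokinin median is below 0 at 0 h.

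The untreated xlg1,2,3 libraries were also set against those of the other mutants, comparisons that share the xlg1,2,3 libraries with the one above. GPA1 averaged 16.3 CPM in gpa1-3, against 119 CPM in Col-0. In seedlings labelled agb1-2, AGB1 averaged 139 CPM, against 130 CPM in Col-0, so its total level does not mark that genotype. Against the libraries labelled agb1-2, 13.4% of genes were higher and 10.4% lower in xlg1,2,3, and against gpa1-3, 4.82% were higher and 3.61% lower.

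HEI10 and AT4G17390 set xlg1,2,3 apart from both. HEI10 averaged 29.4 CPM in xlg1,2,3, 1.13 CPM in gpa1-3 and 0.907 CPM in agb1-2-labelled seedlings, with differences of 4.67 and 4.97. AT4G17390 averaged 8.6 CPM in xlg1,2,3, 115 CPM in gpa1-3 and 120 CPM in agb1-2-labelled seedlings, with differences of -3.75 and -3.82. Most of the other largest falls were not called. Of the 12, 3 were lower and 2 higher in xlg1,2,3 than in the libraries labelled agb1-2, and 3 were lower than in gpa1-3. CHIA averaged 1.05 CPM in xlg1,2,3, 1.59 CPM in gpa1-3, 0.852 CPM in agb1-2-labelled seedlings and 28.1 CPM in Col-0. Of the 12 largest rises, 9 were higher than in the libraries labelled agb1-2 and 8 than in gpa1-3.

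Jasmonate genes were higher in xlg1,2,3 than in the libraries labelled agb1-2 in 30 of 37 cases (median 1.28), and than in gpa1-3 in 5 (median 0.42). JAZ9 averaged 162 CPM in xlg1,2,3, 125 CPM in gpa1-3, 48.2 CPM in agb1-2-labelled seedlings and 55.9 CPM in Col-0. Guard cell genes were higher than in gpa1-3 in 5 of 6 and than in the libraries labelled agb1-2 in 3. TMM averaged 24.1 CPM in xlg1,2,3, 5.53 CPM in gpa1-3, 16.7 CPM in agb1-2-labelled seedlings and 4.84 CPM in Col-0. The drought output genes were higher than in the libraries labelled agb1-2 in 13 of 19 and than in gpa1-3 in 1. RAB18 averaged 14.2 CPM in xlg1,2,3, 11.2 CPM in gpa1-3, 9.26 CPM in agb1-2-labelled seedlings and 1.86 CPM in Col-0.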

How the data were processed

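RNA-seq of whole seedlings was deposited by the authors as 1 Arabidopsis table of unnormalised expected counts per gene. Expected counts were taken as the unit because 1.35% of its values are not whole, and use of strand is not given in the sources used here. Per the submitters' processing notes, STAR and the TAIR10 build were used, with versions and the counting tool not given in the sources used here. Values were rounded to whole counts. All 44 Arabidopsis libraries (16 groups) were fitted together in edgeR 4.0.16 (R 4.3.3) with TMM scaling, filterByExpr (minimum count 10, minimum total 15), a mean per group and quasi-likelihood tests adjusted by Benjamini and Hochberg over 20858 of 32853 genes, with calls at an adjusted p under 0.05. The script was tested on simulated data. Alternatives were DESeq2 1.42.0, its size factors in edgeR, no filter, a fit of only the groups compared, a replicate block and leaving out libraries. Positions, names and promoters (250 bases) are from TAIR10.1, which matched 32182 loci. The text names all 12 G-protein genes, the 12 largest called rises and falls at 10 CPM or more without overlap, up to 4 called members per list by smallest p, called neighbours of the XLG genes (5 on each side), and further members to describe a list, chosen after their values were seen. A called list member that this rule names is not reported here. The comparison and the lists were chosen with earlier results of these data known. Totals of 14.9 to 34.6 M (M, 1e+06) per library set the precision. Tables of the other species were not used here.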

Additional observations from a re-analysis of the deposited data

Results flagged for a closer look

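The xlg1,2,3 minus Col-0 difference of these genes was not the same in treated and untreated seedlings, by edgeR's test of the change itself, with values in log2 as the treated minus the 0 h difference. Over all genes such a change was called for 549 after 2 h in NaCl, 1926 after 24 h in NaCl and 1192 after 4 h in tunicamycin. For XLG1 it was -0.49 at 2 h, -0.83 at 24 h and -1.03 in tunicamycin. Among the other G-protein genes it was -0.48 for AGB1 at 24 h, 1.02 for NDL3 at 2 h and -2.88 for AGG3 in tunicamycin, the last from levels below 0.4 CPM.

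Among the largest rises, the difference shrank at 24 h by -2.43 for AT2G38240, -2.85 for PRN, -3.0 for AT5G55050 and -1.97 for AT4G12490. Among the largest falls it became less negative for CHIA, CHI, CCOAMT, GLP9 and AT4G17390. CHIA changed by 1.96 at 2 h, 2.26 at 24 h and 1.31 in tunicamycin, CHI by 2.75, 1.81 and 1.47, and CCOAMT by 1.68, 1.25 and 1.58 in the same order. GLP9 changed by 2.73 in tunicamycin and AT4G17390 by 1.24 at 24 h. AT1G26250 went further down, by -4.79 at 24 h. The largest rises and falls were chosen by their difference at 0 h, and these changes use the same 0 h libraries. A smaller difference under treatment can therefore come from that choice, which was not tested. Groups of 3 libraries are too small for a test of single outlying libraries.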

How the results depend on the processing

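At 0 h the counts of genes higher (1624) and lower (1773) stayed within 1.5 times of these values under DESeq2 (1781 and 1624), its size factors in edgeR (1757 and 1620), no filter (1619 and 1513), a fit of only the groups compared (1637 and 1642) and the replicate block (1769 and 1943). Leaving out libraries gave 1109 to 1439 higher and 1256 to 1578 lower genes, and 46 to 72 higher and 32 to 39 lower list members. It gave differences of 0.69 to 0.77 for XLG1, -2.69 to -2.39 for XLG2 and -2.35 to -2.12 for XLG3. Fitting only the groups compared lowered the calls to 1340 at 2 h in NaCl (2919 in the fit of all groups), 2434 at 24 h (4070) and 1375 in tunicamycin (2745), and lowered the changes from 0 h to 2 h to 80 (549). The cause was not tested. Of the 96 called genes that the naming rule gave, apart from the XLG genes and members added to describe a list (such as DLO1 and JAZ11), 20 lost the call under at least 1 of 12 settings, 12 of them without replicate 1 of xlg1,2,3, and none of the 104 given by the rule changed direction with a call. Among lists, seed storage had 1 to 9 genes called with libraries left out and 5 under the replicate block. Deviations of same-numbered xlg1,2,3 and Col-0 libraries correlated at 0.095, 0.206 and 0.0647, and those of different numbers at -0.121 to 0.0218. Each library went best with its own number, but the labels do not say that the numbers are pairs. The main fit did not use the numbers, and the replicate block did. At these depths genes below about 1 CPM rest on few counts.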
